A study of Mus musculus with 6 samples.

Results

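The type I interferon-stimulated genes described here are 40 genes of the mouse, chosen by symbol from a fixed list of antiviral effectors, RNA sensors and STAT and IRF factors. Each of the 40 symbols matched 1 entry of the 54446 in the deposited table of FPKM values (fragment counts scaled by gene length and library size). They were chosen with earlier results of these data known. The samples were bone marrow-derived macrophages, cells grown from the marrow of 6-week-old C57BL/6 mice, given PBS, 5 µM KN93 or 10 µM KN93, with 2 samples in each of the 3 groups. KN93 is a small-molecule inhibitor of calcium/calmodulin-dependent protein kinase II and related kinases, and PBS is the buffer given to the controls. The labels give no time of exposure, and nothing in them says that the 2 samples of a group were grown separately or came from different mice. Each p-value therefore rests on the spread of these 6 samples alone, and that spread may be technical.

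Type I interferons, the interferon beta and alpha proteins, are secreted when a cell senses foreign or misplaced nucleic acid. They bind the receptor chains IFNAR1 and IFNAR2, and the kinases JAK1 and TYK2 on that receptor phosphorylate STAT proteins, STAT2 among them. Together with IRF9 they form a complex that binds the interferon-stimulated response element (ISRE) in promoters and switches on a large set of genes, many of which block steps of a viral life cycle. Macrophages are known for a low tonic interferon signal that keeps many of these genes expressed without infection.

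Library totals of about 24200000 to 28300000 fragments stood behind the FPKM values, as read from the steps between low values. Replicates of a group differed by more than counting noise and were kept as separate samples. The macrophage growth factor receptor gene Csf1r had 657 and 642 FPKM with PBS, 439 and 444 at 5 µM, then 327 and 363 at 10 µM. All 40 interferon-stimulated genes passed the filter of at least 1 FPKM in 2 samples, and none owed this to 1 group, since the lowest value in any sample was 6.48 FPKM. The smallest number of fragments behind a value of these genes was 615.

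In the PBS samples the genes covered a wide range of levels. FPKM is scaled by gene length, but that length counts all annotated exons of a gene. Levels can therefore be compared between genes only roughly. Ifitm3, which encodes a membrane protein that blocks viral fusion, was the highest at 2181 ± 178 FPKM (mean ± SD, n = 2). Bst2, which encodes tetherin, a protein that holds budding virus particles on the cell, came next at 1275 ± 48.4. Irf7, which encodes the transcription factor that drives interferon alpha genes, followed with 392 ± 12.1 FPKM. Isg15 with 284 ± 44.3 and Ifit3 with 253 ± 31 FPKM stood below it. The ranges of these 2 genes overlapped, though Isg15 was above Ifit3 within each PBS sample (316 against 274 and 253 against 231). In all, 10 of the 40 genes had a mean of at least 100 FPKM with PBS, and the median over the 40 was 51.3 FPKM. Herc6 and Mx2 were the lowest, at 7.7 ± 1.2 and 7.57 ± 0.921 FPKM, and did not differ beyond their spread.

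At 10 µM KN93 the set as a whole stood higher than with PBS. Of the 40 genes 34 rose at an adjusted p under 0.05 (limma, Benjamini-Hochberg over 12722 genes), against 28.5% of all genes tested. Rsad2, Cmpk2, Ifit2, Phf11d, Usp18, Ifit3, Ifit1, Ifit3b and Mx1, 9 of the 40, rose by at least 1 on the log2 scale, which 3.1% of all genes tested did. The median log2 change was 0.56 over the 40 genes and 0.05 over all genes tested. The lowest 10 µM sample lay above the highest PBS sample for 38 genes (44.2% of all genes tested), and for 0 the order was the opposite (32.6%). By limma 0 genes of the set fell (22.0% of all genes tested), 0 also at an unadjusted p under 0.05 and 0 with voom on recovered fragments. The 6 genes that did not pass were Eif2ak2, Trim30a, Ifitm3, Dhx58, Irf1 and Parp9. Of the 34 calls, 25 were made in each of the 13 alternative fits. Without the PBS replicate 2 the count of rises was the lowest of the alternatives, and rises over all genes tested were fewer too. In a bulk sample, fewer cells of a type and less RNA per cell cannot be told apart.

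At 5 µM the set was split. Of the 40 genes 10 rose (15.1% of all genes tested) and 1, Eif2ak2, fell (15.4% of all genes tested). The genes that rose were Rsad2, Ifit2, Cmpk2, Bst2, Usp18, Ifit3, Phf11d, Ifit3b, Ifit1 and Oas3, of which 1, Rsad2, passed 1 on the log2 scale (0.88% of all genes tested). Both doses were set against the same 2 PBS samples. The estimate was negative for 15 genes and positive for 25, and the median log2 change was 0.06, against 0.01 over all genes tested. The groups did not overlap, with 5 µM higher, for 17 genes (37.0% of all genes tested) and, with 5 µM lower, for 7 (33.0%). With no filter on low values 5 genes of the set rose, as did 1282 of the 30856 genes then tested. The falls numbered 2 with median-of-ratios scaling, 2 with a filter of 5 FPKM and 4 with voom on recovered fragments. Leaving out PBS replicate 2, 5 µM replicate 1 or 5 µM replicate 2 gave fewer rises in the set, and fewer over all genes tested.

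**Figure D1:**
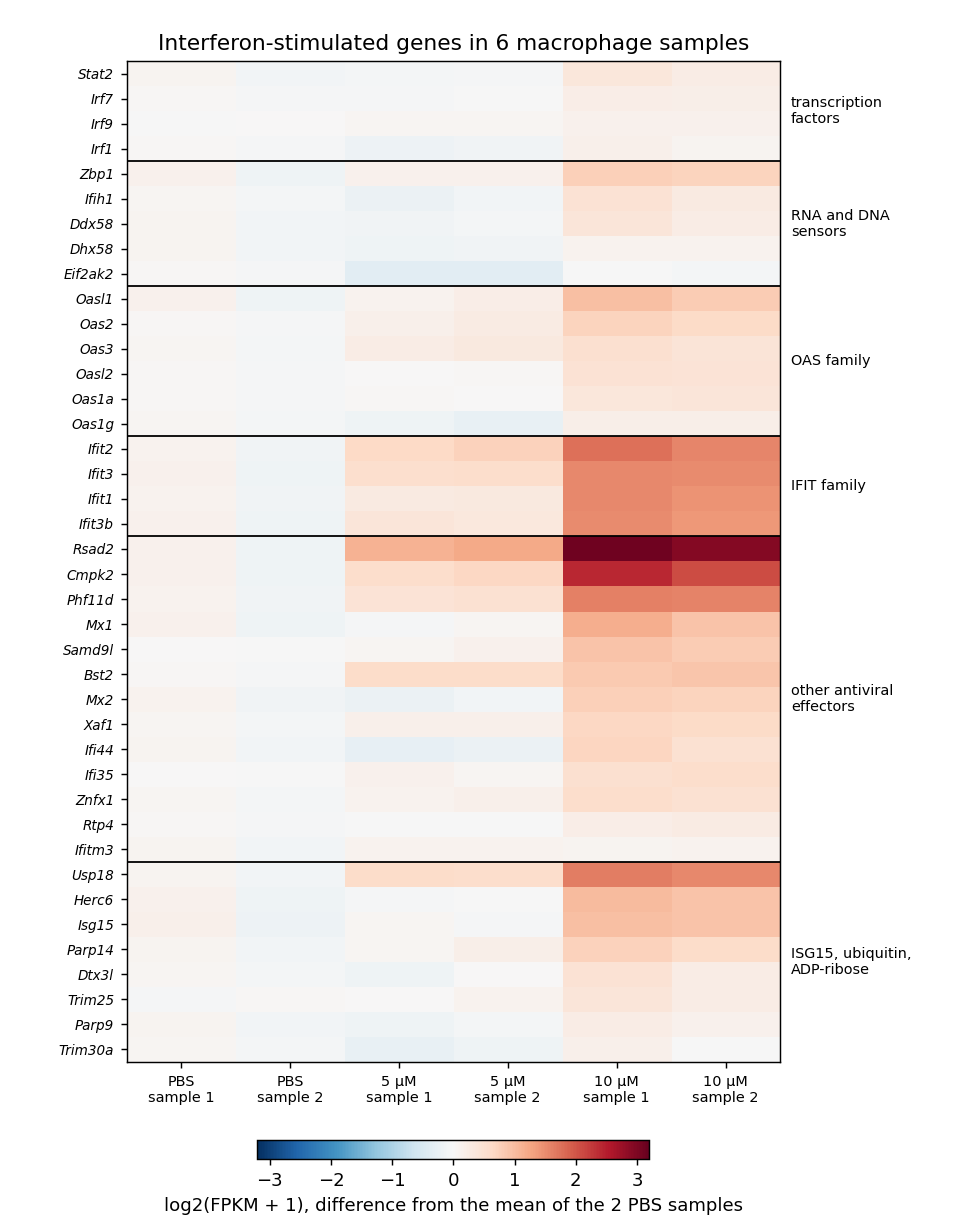
Each row is 1 of the 40 interferon-stimulated genes and each column 1 of the 6 samples. Colour gives log2(FPKM + 1) as a difference from the mean of the 2 PBS samples, with genes grouped by role. Rsad2 and Cmpk2 show the darkest cells at 10 µM, and the 5 µM columns are mixed, with Eif2ak2 below PBS.

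Between the doses, 34 genes rose from 5 µM to 10 µM (11.4% of all genes tested), and 0 fell by limma (8.5%), 0 also at an unadjusted p under 0.05 and 0 with voom on recovered fragments. Rsad2, Cmpk2, Ifit1, Phf11d, Ifit3b, Mx1 and Usp18, 7 of the 40, rose by at least 1 on the log2 scale (0.77% of all genes tested). Dhx58, Irf1 and Eif2ak2 passed here but not at 10 µM against PBS. The Dhx58 call here was lost in 7 of the 13 alternatives (adjusted p 0.0211 to 0.165 over the 13), including on leaving out 5 µM replicate 1 (0.165), 5 µM replicate 2 (0.138), 10 µM replicate 1 (0.123) or 10 µM replicate 2 (0.128). That of Irf1 was lost in 4 of the 13 alternatives (adjusted p 0.00979 to 0.111 over the 13), including on leaving out 5 µM replicate 1 (0.111), 5 µM replicate 2 (0.0795) or 10 µM replicate 1 (0.0823). That of Eif2ak2 was lost in 2 of the 13 alternatives (adjusted p 0.00385 to 0.0687 over the 13), namely on leaving out 5 µM replicate 1 (0.059) or 5 µM replicate 2 (0.0687). The 10 µM samples lay above the 5 µM samples without overlap for 39 genes (37.7% of all genes tested), and for 1, Ifitm3, below them (26.0%). Over all genes tested, 1455 rose and 1081 fell between the doses, a split that median-of-ratios scaling turned to 1097 and 1317, while the 40 genes then had 30 rises and 0 falls. Leaving out 5 µM replicate 1 gave 19 rises in the set, 5 µM replicate 2 gave 20 and 10 µM replicate 1 gave 22. Over all genes tested, each of these fits also gave fewer rises. The 18 genes of the set called in each of the 13 alternatives included Rsad2, Cmpk2, the 4 IFIT genes, Usp18, Isg15, Mx1 and Mx2.

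Markers of macrophages and of other cells, and the share of fragments from the mitochondrial genome, moved with dose beside these genes. The summed FPKM of the 40 interferon-stimulated genes was 6692 and 6046 FPKM with PBS, 7530.0 and 7572 at 5 µM, then 10098 and 9878 at 10 µM. Ifitm3 and Bst2 were the largest parts of this sum. Their means were 2181 and 1275 FPKM with PBS, 2359 and 1922 at 5 µM, then 2328 and 2311 at 10 µM. The median log2 change over the 40 genes at 5 µM was 0.06, so the sum does not stand for most of them there. The summed FPKM of 14 macrophage markers fell, from 24170.0 and 23576 FPKM with PBS to 18469 and 17968 at 5 µM, then 9983 and 10997 at 10 µM. Of the 14, 11 fell at 10 µM (22.0% of all genes tested), among them the complement genes C1qa, C1qb and C1qc and the integrin gene Itgam. Cd68, which encodes a lysosomal membrane protein, was the 1 macrophage marker that rose at 10 µM, by 0.77 ± 0.07 (limma adjusted p = 0.000403; 28.5% of all genes tested rose). The sum of 13 stromal and fibroblast markers was 2341 and 2279.7 FPKM with PBS. It was 777 and 644 at 5 µM, then 485 and 458 at 10 µM. Of 11 tested, 9 fell at 10 µM (22.0% of all genes tested), with Lum under 0.2 FPKM in each sample. The 12 neutrophil markers summed to 197 and 194 FPKM with PBS, 111 and 119.7 at 5 µM, then 61.1 and 67.4 at 10 µM. All 7 tested fell at 10 µM (22.0% of all genes tested), with Ly6g and Cxcr2 under 0.2 FPKM. Of the 12 lymphocyte and natural killer cell markers 10 were under 0.2 FPKM in each sample, with Cd3d listed at 0, and the 12 summed to 9.12 and 9.37 FPKM with PBS, 4.57 and 4.38 at 5 µM, then 1.97 and 2.19 at 10 µM. Plasmacytoid dendritic cells are known as strong producers of interferon, and of their 10 markers 5 stayed under 0.2 FPKM in each sample, Siglech and Ccr9 included, with Klk1 listed at 0. Of the 5 tested, 2 rose at 10 µM, Bst2 and Cox6a2, and 2 fell, Tcf4 and Irf8 (28.5% and 22.0% of all genes tested). Cox6a2, which encodes a subunit of cytochrome c oxidase, changed on the log2 scale by 0.92 ± 0.08 at 5 µM and 3.19 ± 0.08 at 10 µM (at 10 µM limma adjusted p = 1.3e-05). The sum of those 10, 1351 and 1286 FPKM with PBS, 1973 and 1959 at 5 µM, then 2322 and 2404 at 10 µM, was mostly Bst2, which also belongs to the 40 genes. Genes of the mitochondrial genome held 0.885% and 0.947% of fragments with PBS, 0.565% and 0.674% at 5 µM, then 0.464% and 0.378% at 10 µM. The part of these shifts in the changes of the interferon-stimulated genes was not tested.

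The plot of all genes tested shows where the set lay among the transcriptome. Ranked by log2 change at 10 µM among 12722 genes, Rsad2 was number 12, Cmpk2 number 43, Ifit2 number 116, Phf11d number 131 and Usp18 number 134.

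**Figure D2:**
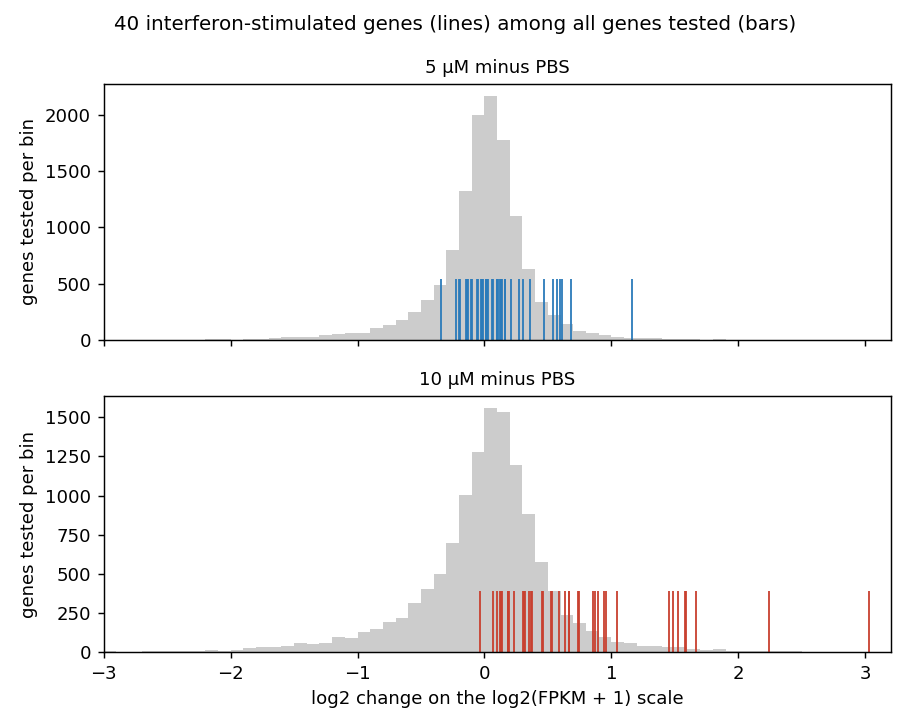
Bars count all genes tested in bins of 0.1 of log2 change on the log2(FPKM + 1) scale, for changes from -3 to 3 (genes beyond have no bar), at 5 µM (upper panel) and 10 µM (lower panel) against PBS. Each coloured line is 1 of the 40 interferon-stimulated genes. At 10 µM nearly all lines lie right of zero, from -0.03 for Eif2ak2 to 3.03 for Rsad2.

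At 10 µM Rsad2 and Cmpk2 had the largest changes of the 40 genes. Rsad2 encodes viperin, a radical SAM enzyme that makes a chain-terminating nucleotide, and Cmpk2 encodes a mitochondrial nucleotide kinase. Rsad2 had 47 and 38.1 FPKM with PBS, 92.6 and 99.6 at 5 µM, then 377 and 331 at 10 µM. Each 10 µM sample was well above each 5 µM sample, and each 5 µM sample above each PBS sample. The log2 change was 1.16 ± 0.12 at 5 µM (standard error; limma adjusted p = 0.00186) and 3.03 ± 0.12 at 10 µM (limma adjusted p = 3.78e-05), a ratio of mean FPKM of 8.31 at 10 µM. Cmpk2 had 24.1 and 19.5 FPKM with PBS, 32.7 and 34.7 at 5 µM, then 119 and 95.1 at 10 µM. Its samples stood in the same order without overlap, and it rose by 0.61 ± 0.14 at 5 µM (limma adjusted p = 0.0226) and by 2.24 ± 0.14 at 10 µM (limma adjusted p = 0.000134). The 5 µM call of Cmpk2 was lost in 4 of the 13 alternatives (adjusted p 0.00644 to 0.0996 over the 13), including on leaving out PBS replicate 2 (0.0907), 5 µM replicate 1 (0.0743) or 5 µM replicate 2 (0.0996).

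The pair are neighbours on chromosome 12 of GRCm38, where Rsad2 lies at chr12:26442746-26456452 on the minus strand and Cmpk2 at chr12:26469204-26479837 on the plus strand. Their promoters are shown because they belong to the genes with the largest rises at 10 µM that had an entry in the RefSeq promoter table (build GRCm38.p6). The 250 bases before each RefSeq start are printed 5′ to 3′ along the gene's own strand, chr12:26456453-26456702 for Rsad2 and chr12:26468965-26469214 for Cmpk2. Capitals mark a match to the ISRE-type pattern, GAAA, any 2 bases and GAAA again, on either strand, which reads TTTC, any 2 bases and TTTC when it lies on the other strand.
Rsad2: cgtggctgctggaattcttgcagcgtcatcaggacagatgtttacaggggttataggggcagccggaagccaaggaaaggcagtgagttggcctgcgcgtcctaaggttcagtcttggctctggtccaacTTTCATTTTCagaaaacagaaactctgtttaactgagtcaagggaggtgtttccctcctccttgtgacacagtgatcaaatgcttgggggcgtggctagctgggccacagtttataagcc
Cmpk2: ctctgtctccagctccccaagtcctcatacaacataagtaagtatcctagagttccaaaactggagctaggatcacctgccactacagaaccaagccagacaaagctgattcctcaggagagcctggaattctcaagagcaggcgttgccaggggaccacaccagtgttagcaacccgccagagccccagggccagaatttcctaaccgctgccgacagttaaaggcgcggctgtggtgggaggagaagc
The Rsad2 window held 1 match, 120 bases before the start. The Cmpk2 window held no match, which says nothing of what binds there.

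**Figure D3:**
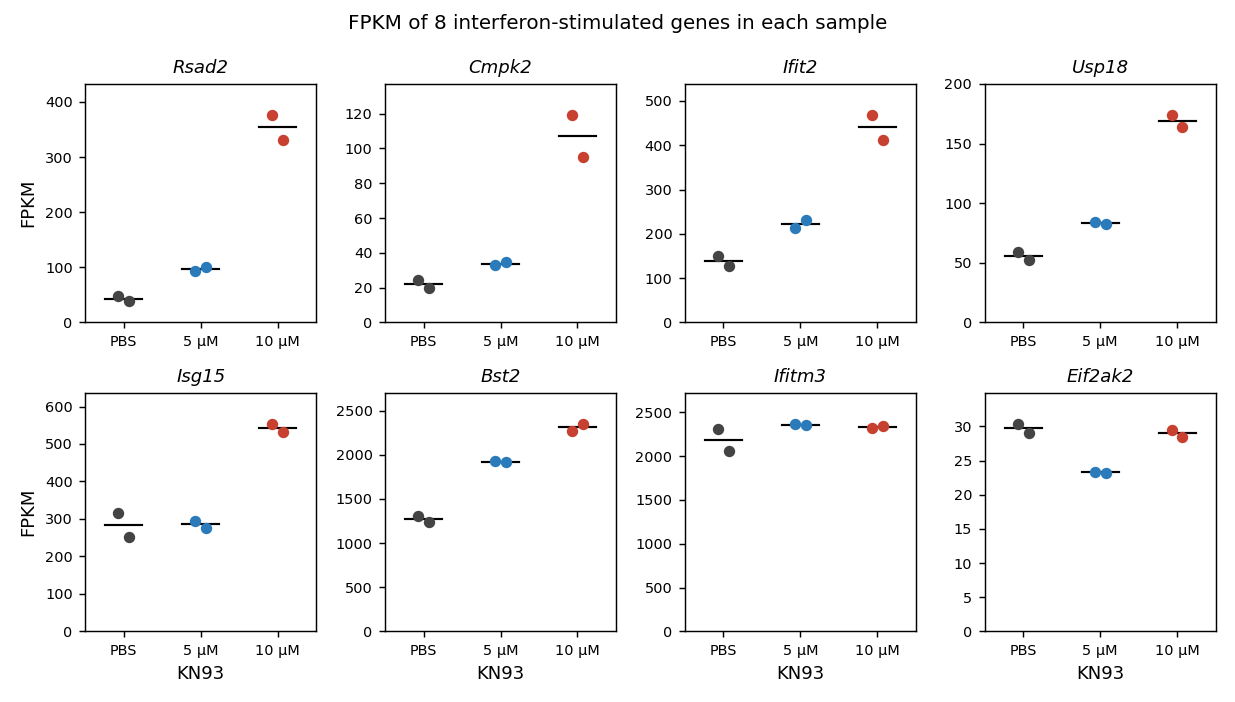
FPKM in each sample (points; the bar is the mean of 2) for 8 interferon-stimulated genes, by KN93 dose, each panel with its own axis from 0. Rsad2 and Cmpk2 step up at each dose, Isg15 is level between PBS and 5 µM, Ifitm3 lies between 2055 and 2368 FPKM in every sample, and Eif2ak2 is lowest at 5 µM.

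The IFIT genes encode proteins that bind viral RNA or translation factors. All 4 rose at both doses (15.1% of all genes tested at 5 µM and 28.5% at 10 µM). They lie together on chromosome 19 (GRCm38) between 34550694 and 34650009. Ifit2 had 149 and 128 FPKM with PBS, 213 and 231 at 5 µM, then 469 and 412 at 10 µM. Ifit3, the most abundant of the 4 in each sample, had 274 and 231 FPKM with PBS, 363 and 369.6 at 5 µM, then 728 and 721 at 10 µM. Neither gene had overlapping groups. The log2 changes at 10 µM were 1.67 ± 0.10 for Ifit2, 1.52 ± 0.09 for Ifit3, 1.49 ± 0.08 for Ifit1 and 1.45 ± 0.09 for Ifit3b (largest limma adjusted p = 0.00016). At 5 µM they were 0.68 ± 0.10, 0.54 ± 0.09, 0.30 ± 0.08 and 0.36 ± 0.09 in the same order (limma adjusted p = 0.00642, 0.00832, 0.0403 and 0.0356). The 5 µM call of Ifit1 was lost in 8 of the 13 alternatives (adjusted p 0.0246 to 0.149 over the 13), including on leaving out PBS replicate 2 (0.128), 5 µM replicate 1 (0.122), 5 µM replicate 2 (0.149), 10 µM replicate 1 (0.0591) or 10 µM replicate 2 (0.0591). That of Ifit3b was lost in 4 of the 13 alternatives (adjusted p 0.0192 to 0.134 over the 13), including on leaving out PBS replicate 2 (0.108), 5 µM replicate 1 (0.134) or 5 µM replicate 2 (0.113). Ifit3 and Ifit3b share sequence: 41.1% of the 75-base windows of Ifit3 transcripts also occur in another gene, and 35.7% of those of Ifit3b, so fragments can be split between them and their single values are uncertain.

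The ISRE-type matches in the promoter windows of the IFIT genes are shown with 10 bases on each side, since Ifit1, Ifit3 and Ifit3b each held 2. They are printed along the gene's plus strand, with the match in capitals and its first base counted back from the RefSeq start.
Ifit1, 104 bases before: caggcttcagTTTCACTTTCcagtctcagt
Ifit1, 85 bases before: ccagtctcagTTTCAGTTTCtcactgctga
Ifit3, 156 bases before: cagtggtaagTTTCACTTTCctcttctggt
Ifit3, 122 bases before: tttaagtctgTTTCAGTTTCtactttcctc
The Ifit1 matches lie at chr19:34640785-34640794 and chr19:34640804-34640813, and those of Ifit3 at chr19:34583373-34583382 and chr19:34583407-34583416, all read on the minus strand. In Ifit3b both stretches had the same letters as in Ifit3, with the matches 188 and 154 bases before the start. The RefSeq windows of Ifit2 held no match.

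The OAS genes encode sensors of double-stranded RNA that make 2′-5′ oligoadenylate, the activator of RNase L, and the OASL genes encode related proteins. All 6 rose at 10 µM (28.5% of all genes tested), with a median log2 change of 0.46. Oasl1 had 86.5 and 70.4 FPKM with PBS, 84.6 and 90.9 at 5 µM, then 154 and 138 at 10 µM, a log2 change at 10 µM of 0.89 ± 0.11 (limma adjusted p = 0.00151). Oas2 had 49.2 and 47 FPKM with PBS, 53.7 and 58 at 5 µM, then 79.8 and 73.9 at 10 µM, and rose at 10 µM by 0.66 ± 0.06 (limma adjusted p = 0.000618). Both 10 µM samples were above the other 4 for these genes. Oas3 rose at both doses, by 0.27 ± 0.07 at 5 µM and 0.46 ± 0.07 at 10 µM (limma adjusted p = 0.0287 and 0.00259). Its 5 µM call was lost in 5 of the 13 alternatives (adjusted p 0.0208 to 0.132 over the 13), including on leaving out PBS replicate 1 (0.0527), PBS replicate 2 (0.132), 5 µM replicate 1 (0.0739) or 5 µM replicate 2 (0.131). Oasl2 and Oas1a rose at 10 µM by 0.45 and 0.37. Oas1g had 50.6 and 46.8 FPKM with PBS, 43.8 and 40.8 at 5 µM, then 55.2 and 55.6 at 10 µM, so its 5 µM samples lay below PBS and its 10 µM samples above. Its log2 change was -0.20 ± 0.06 at 5 µM, which did not pass (limma adjusted p = 0.0535), and 0.18 ± 0.06 at 10 µM (limma adjusted p = 0.0453). The fall at 5 µM was called in 3 of the 13 alternatives. The 10 µM call was lost in 10 of the 13 alternatives (adjusted p 0.0404 to 0.206 over the 13), including on leaving out PBS replicate 1 (0.0526), PBS replicate 2 (0.206), 5 µM replicate 1 (0.0557), 5 µM replicate 2 (0.0556), 10 µM replicate 1 (0.112) or 10 µM replicate 2 (0.128). Oas1a and Oas1g share 47.6% and 36.9% of their 75-base windows with another gene, each other, so their single values are uncertain.

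The promoters of these near copies also shared their letters around the ISRE-type pattern. Oas1a and Oas1g each held 2 overlapping matches with the same flanks, on chromosome 5, beginning 20 and 14 bases before the start in Oas1a and 18 and 12 in Oas1g. In Oas1a they cover chr5:120907530-120907545 on the minus strand.
Oas1a, 20 bases before: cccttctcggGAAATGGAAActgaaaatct
Oas1a, 14 bases before: tcgggaaatgGAAACTGAAAatctacttcc

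Among the other antiviral effectors, 12 of 13 rose at 10 µM (28.5% of all genes tested), and Ifitm3 was the exception. Phf11d, a PHD finger gene, had 19.1 and 16.3 FPKM with PBS, 24.4 and 25.2 at 5 µM, then 55.7 and 54.8 at 10 µM, with no overlap between any 2 groups. It rose by 0.47 ± 0.08 at 5 µM and 1.59 ± 0.08 at 10 µM (limma adjusted p = 0.00878 and 6.92e-05). Its 5 µM call was lost in 1 of the 13 alternatives (adjusted p 0.00228 to 0.0526 over the 13), namely on leaving out 5 µM replicate 2 (0.0526). Bst2 had 1309 and 1241 FPKM with PBS, 1929 and 1915 at 5 µM, then 2271 and 2351 at 10 µM, with no overlap between any 2 groups. Its log2 change was 0.59 ± 0.07 at 5 µM (limma adjusted p = 0.00255), a call lost in 1 of the 13 alternatives, with no filter on low values (adjusted p = 0.066; range over the 13 0.000114 to 0.066). From 5 to 10 µM it was 0.27 ± 0.07 (limma adjusted p = 0.0408). That step was lost in 10 of the 13 alternatives (adjusted p 0.00773 to 0.4 over the 13), including on leaving out PBS replicate 1 (0.0848), PBS replicate 2 (0.0838), 5 µM replicate 1 (0.128), 5 µM replicate 2 (0.147), 10 µM replicate 1 (0.0775) or 10 µM replicate 2 (0.112). The second step was smaller than the first by estimate, and the difference of -0.33 ± 0.11 did not pass (limma adjusted p = 0.147).

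The Mx family is known for dynamin-like GTPases that trap viral particles. RNA levels do not show whether these mice make a working protein from either gene. Mx1 had 51.4 and 41.9 FPKM with PBS, 45.5 and 48.2 at 5 µM, then 105 and 88.8 at 10 µM. The PBS and 5 µM samples overlapped, and both 10 µM samples lay above them. Mx1 rose at 10 µM by 1.04 ± 0.12 (limma adjusted p = 0.00122), and Mx2, at 8.23 and 6.92 FPKM with PBS, 6.48 and 7.05 at 5 µM, then 13.4 and 13.1 at 10 µM, by 0.73 ± 0.09 (limma adjusted p = 0.00121). Samd9l, which encodes a poxvirus restriction factor, had 36.3 and 35.3 FPKM with PBS, 37.7 and 39.3 at 5 µM, then 68.7 and 63.7 at 10 µM and rose at 10 µM by 0.87 ± 0.06 (limma adjusted p = 0.000151). Ifi44 had 35.1 and 30.8 FPKM with PBS, 27.3 and 28.9 at 5 µM, then 53.7 and 46.4 at 10 µM. Its 5 µM samples were the lowest, and it rose at 10 µM by 0.59 ± 0.09 (limma adjusted p = 0.00385). Xaf1, which encodes an antagonist of the apoptosis inhibitor XIAP, Znfx1, which encodes an RNA helicase of antiviral defence, Ifi35 and Rtp4 rose at 10 µM by 0.63, 0.52, 0.53 and 0.24. The call of Rtp4 was lost in 1 of the 13 alternatives (adjusted p 0.0084 to 0.0576 over the 13), namely on leaving out PBS replicate 2 (0.0576). Ifitm3 had 2306 and 2055 FPKM with PBS, 2368 and 2350.3 at 5 µM, then 2316 and 2339.9 at 10 µM, and it changed by 0.12 ± 0.08 at 5 µM and 0.10 ± 0.08 at 10 µM (limma adjusted p = 0.321 and 0.355), with its lowest value in the PBS replicate 2.

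ISG15 is a ubiquitin-like protein that is joined to other proteins, USP18 removes it and also dampens the interferon receptor, and HERC6 is the ligase that joins it in mice. Usp18 had 59.4 and 52.1 FPKM with PBS, 84.2 and 82.1 at 5 µM, then 174 and 164 at 10 µM, in 3 steps without overlap. It rose by 0.57 ± 0.07 at 5 µM and 1.58 ± 0.07 at 10 µM (limma adjusted p = 0.00425 and 6.04e-05). Isg15 had 316 and 253 FPKM with PBS, 295 and 276 at 5 µM, then 554 and 532 at 10 µM. Its 5 µM samples lay between the PBS samples, and it rose at 10 µM by 0.94 ± 0.11 (limma adjusted p = 0.00124). Herc6 had 8.55 and 6.84 FPKM with PBS, 7.48 and 7.57 at 5 µM, then 16.4 and 15.2 at 10 µM and rose at 10 µM by 0.95 ± 0.10 (limma adjusted p = 0.000821). Of the ligase and ADP-ribosylation genes, Parp14 rose at 10 µM by 0.66 ± 0.09, Dtx3l by 0.35 ± 0.10 and Trim25, the ligase that activates RIG-I, by 0.31 ± 0.07 (limma adjusted p = 0.00174, 0.0262 and 0.011). The call of Dtx3l was lost in 5 of the 13 alternatives (adjusted p 0.0141 to 0.119 over the 13), including on leaving out PBS replicate 1 (0.0528), PBS replicate 2 (0.119) or 10 µM replicate 1 (0.0943). The call of Trim25 was lost in 1 of the 13 alternatives (adjusted p 0.00669 to 0.0611 over the 13), namely on leaving out PBS replicate 1 (0.0611). Parp9, whose product pairs with that of Dtx3l, and Trim30a did not pass at 10 µM, where they changed by 0.19 ± 0.08 and 0.07 ± 0.08 (limma adjusted p = 0.096 and 0.468). Parp9 and Dtx3l lie on opposite strands of chromosome 16 and overlap over 9.4% of the exon bases of Parp9. The use of strand in the counting is not given in the sources used here, so fragments there cannot be told apart. Exons of other genes overlapped more of Ifi35 (16.8% of exon bases, opposite strand), Rtp4 (13.9%, same strand) and Herc6 (13.7%, same strand). Their single values carry the same limit.

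**Figure D4:**
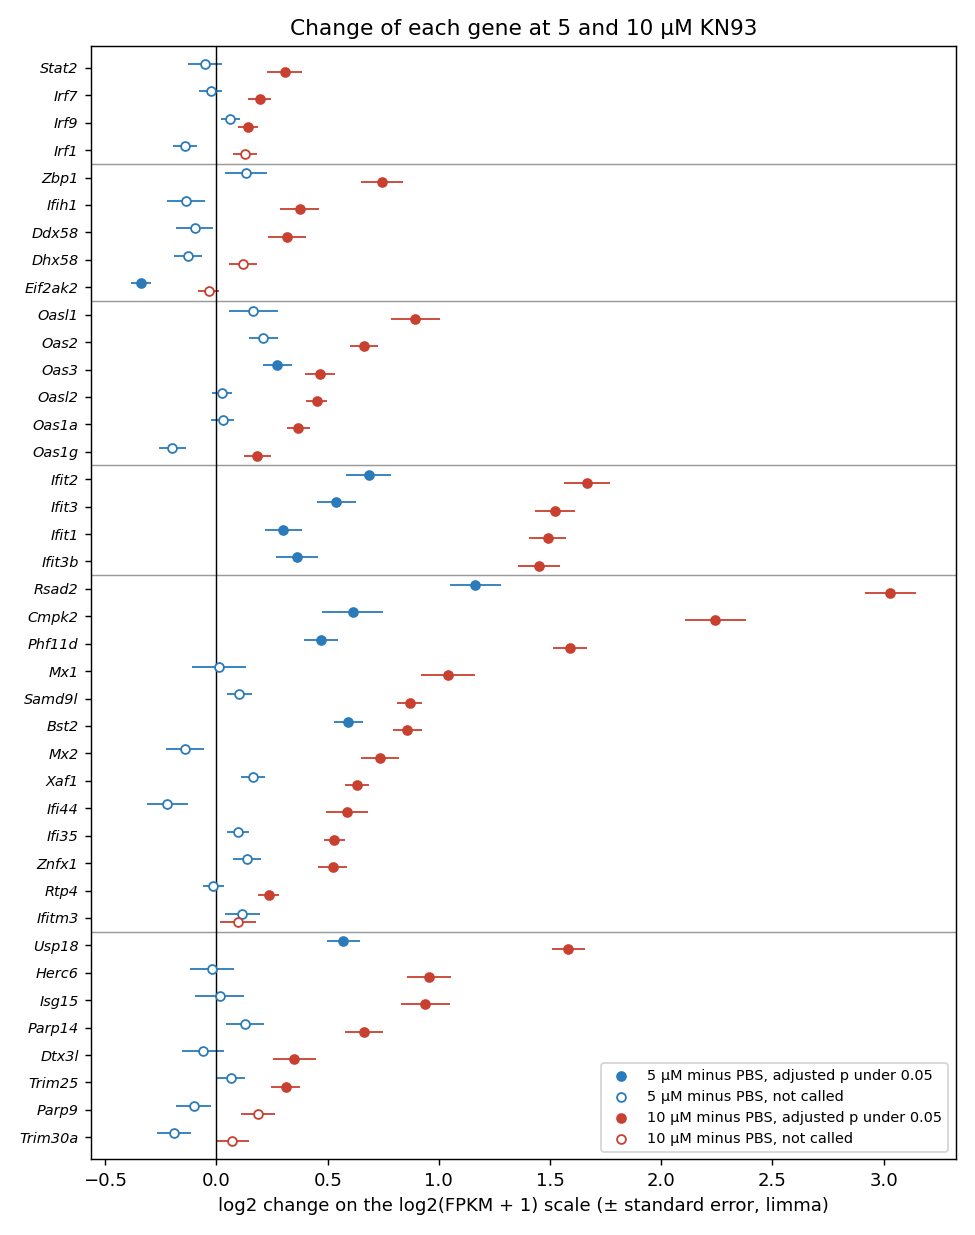
Log2 change of each of the 40 genes on the log2(FPKM + 1) scale, with its standard error from limma, at 5 µM (blue) and 10 µM (red) against PBS; filled points have an adjusted p under 0.05, and lines divide the roles in the order transcription factors, sensors, OAS, IFIT, other effectors and the ISG15 group. The red point lies right of the blue one for every gene except Ifitm3.

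The 5 sensors of foreign nucleic acid had a median log2 change of 0.32 at 10 µM. Zbp1, which senses Z-form nucleic acid, had 66.4 and 54.3 FPKM with PBS, 66.2 and 65.8 at 5 µM, then 103 and 99.3 at 10 µM and rose at 10 µM by 0.74 ± 0.09 (limma adjusted p = 0.00169). Ifih1, which encodes the RNA sensor MDA5, had 25.2 and 22.8 FPKM with PBS, 20.9 and 22.6 at 5 µM, then 33.5 and 29.3 at 10 µM, and Ddx58, which encodes RIG-I, had 46.6 and 40.7 FPKM with PBS, 39.8 and 41.3 at 5 µM, then 57.5 and 51.6 at 10 µM. For both genes the 10 µM samples were above all others. They rose at 10 µM by 0.37 ± 0.09 and 0.32 ± 0.08 (limma adjusted p = 0.0149 and 0.0241). The call of Ifih1 was lost in 2 of the 13 alternatives (adjusted p 0.0065 to 0.0746 over the 13), namely on leaving out PBS replicate 2 (0.0746) or 10 µM replicate 1 (0.0583). The call of Ddx58 was lost in 4 of the 13 alternatives (adjusted p 0.0143 to 0.103 over the 13), including on leaving out PBS replicate 2 (0.103) or 10 µM replicate 1 (0.101). Dhx58, which encodes the related protein LGP2, changed by 0.12 ± 0.06 on the log2 scale, which did not pass (limma adjusted p = 0.163). Eif2ak2 encodes PKR, a kinase that halts translation on double-stranded RNA, and had 30.4 and 29 FPKM with PBS, 23.3 and 23.2 at 5 µM, then 29.5 and 28.4 at 10 µM. Both 5 µM samples were below the other 4, and PBS and 10 µM overlapped. It fell at 5 µM by 0.34 on the log2 scale with a standard error of 0.05 (limma adjusted p = 0.0051), a call made in each of the 13 alternatives. At 10 µM the change was -0.03 ± 0.05 (limma adjusted p = 0.581).

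The 4 transcription factors of the set had the smallest median log2 change of the 6 roles at 10 µM, 0.17. Stat2 had 84.2 and 73.6 FPKM with PBS, 75.2 and 76.7 at 5 µM, then 102 and 93.8 at 10 µM and rose at 10 µM by 0.31 ± 0.08 (limma adjusted p = 0.0208). Irf7 had 401 and 384 FPKM with PBS, 379.8 and 391 at 5 µM, then 451 and 447 at 10 µM and rose by 0.19 ± 0.05 (limma adjusted p = 0.0238). Irf9, the DNA-binding partner of STAT2, had 17 and 17.5 FPKM with PBS, 18.1 and 18 at 5 µM, then 19.1 and 19.2 at 10 µM and rose by 0.14 ± 0.04 (limma adjusted p = 0.0379). The groups did not overlap at 10 µM against PBS for these genes, but the calls were not stable. The call of Stat2 was lost in 4 of the 13 alternatives (adjusted p 0.0129 to 0.0902 over the 13), including on leaving out PBS replicate 2 (0.0841) or 10 µM replicate 1 (0.0902). The call of Irf7 was lost in 7 of the 13 alternatives (adjusted p 0.0204 to 0.132 over the 13), including on leaving out PBS replicate 1 (0.0627), PBS replicate 2 (0.132), 10 µM replicate 1 (0.0666) or 10 µM replicate 2 (0.0601). The call of Irf9 was lost in 10 of the 13 alternatives (adjusted p 0.0319 to 0.175 over the 13), including on leaving out PBS replicate 1 (0.175), PBS replicate 2 (0.0921), 5 µM replicate 1 (0.0735), 5 µM replicate 2 (0.0734), 10 µM replicate 1 (0.0856) or 10 µM replicate 2 (0.0948). Irf1, an activator of promoters with ISRE-type sequences, had 33.7 and 31.9 FPKM with PBS, 29 and 30.3 at 5 µM, then 36.9 and 35.1 at 10 µM, a change of 0.13 ± 0.05 at 10 µM that did not pass (limma adjusted p = 0.0957).

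The step from PBS to 5 µM was set against the step from 5 to 10 µM. By estimate, the second step minus the first was positive for 37 of 40 genes, with a median of 0.44 on the log2 scale, against 0.03 over all genes tested. Tested gene by gene in the same fit, the steps differed for 8 genes (2.88% of all genes tested), namely Eif2ak2, Samd9l, Mx2, Ifi44, Ifit1, Herc6, Oas1g and Oasl2. For each of them the second step was the more positive, and for 0 the more negative (2.48%). The 5 µM samples enter both steps. The largest of these differences were 1.03 ± 0.16 for Ifi44 (limma adjusted p = 0.0338) and 1.01 ± 0.15 for Mx2 (limma adjusted p = 0.0309). This count was not stable: it was 21 with voom on recovered fragments, 15 with a filter of 5 FPKM and 0 with no filter, where 31 were more positive at an unadjusted p under 0.05 in limma (8.42% of all genes). Leaving out PBS replicate 2 gave 5 and 10 µM replicate 2 gave 3, while PBS replicate 1, 5 µM replicate 1, 5 µM replicate 2 and 10 µM replicate 1 each gave 0, with 18 to 27 genes more positive at an unadjusted p under 0.05 in limma (8.49% to 13% of all genes tested). In the fit of all samples 32 genes were more positive at an unadjusted p under 0.05 (14.6% of all genes tested) and 1, Bst2, more negative (11.3%).

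Interferon-stimulated genes differed together between the samples of a group. In the PBS group 38 of the 40 genes were higher in replicate 1 than in replicate 2, where 46.5% of all genes tested were. The median log2 difference was 0.16 over the 40 genes and -0.01 over all genes tested. At 10 µM 32 of the 40 genes were higher in replicate 1 (50.9% of all genes tested), with a median of 0.09, and at 5 µM 11 were (51.4%), with a median of -0.04. Each gene was tested against its own differences within groups, moderated by limma towards a trend over all genes. The tests take each gene alone and do not account for differences that the genes share. The counts of genes above are therefore not counts of independent results.

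Of the ligands upstream of the set, Ifnb1, which encodes interferon beta, stayed under the filter at 0.0991 and 0.141 FPKM with PBS, 0.203 and 0.0481 at 5 µM, then 0.11 and 0.517 at 10 µM. Behind those values were 2 and 3 fragments in the PBS samples, 4 and 1 in the 5 µM samples, and 2 and 11 in the 10 µM samples, so a difference between groups was not detectable at this depth. Ifna4 was listed at 0 in each sample. Of 28 genes of nucleic acid sensing and interferon induction in the table, 21 were tested, of which 9 rose and 7 fell at 10 µM (28.5% and 22.0% of all genes tested), with a median log2 change of -0.0048. Tbk1, the kinase that activates IRF3, had 26.4 and 26.5 FPKM with PBS, 28.9 and 29.9 at 5 µM, then 36.9 and 36.1 at 10 µM and rose at 10 µM by 0.45 ± 0.04 (limma adjusted p = 0.000639). Tmem173, which encodes the DNA-sensing adaptor STING, fell in steps from PBS to 10 µM, with 25.7 and 23.4 FPKM with PBS, 16.4 and 16.2 at 5 µM, then 13.4 and 13.3 at 10 µM (limma adjusted p = 0.0002 at 10 µM). Irak4 and Unc93b1, which serve Toll-like receptor signalling and trafficking, fell at 10 µM by 0.72 and 0.56 on the log2 scale. Irf3 itself had 11 and 10.8 FPKM with PBS, 11.4 and 10.8 at 5 µM, then 10 and 11.8 at 10 µM, with overlapping groups at 10 µM and PBS (limma adjusted p = 0.967).

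Ifnar1, Ifnar2 and Ifngr1, which encode receptor chains, fell at 10 µM. Ifnar1, which encodes a chain of the type I interferon receptor, had 42.6 and 41.8 FPKM with PBS, 28.7 and 29.2 at 5 µM, then 22.7 and 21.9 at 10 µM. It changed by -0.53 ± 0.04 on the log2 scale at 5 µM and by -0.89 ± 0.04 at 10 µM (limma adjusted p = 0.00105 and 7.04e-05), and no 2 groups overlapped. Ifnar2, the other chain, had 40.8 and 39.2 FPKM with PBS, 34.7 and 34.9 at 5 µM, then 30.3 and 32.4 at 10 µM and fell at 10 µM by 0.34 on the log2 scale (limma adjusted p = 0.00313). Ifngr1, a chain of the interferon gamma receptor, had 69.3 and 66.7 FPKM with PBS, 36 and 36.8 at 5 µM, then 24 and 24.4 at 10 µM, a log2 change of -1.45 ± 0.04 at 10 µM (limma adjusted p = 2.2e-05). Behind the receptor, Jak1 had 44.4 and 43.5 FPKM with PBS, 48.2 and 47.6 at 5 µM, then 61.2 and 57.6 at 10 µM and rose at 10 µM by 0.42 ± 0.05 (limma adjusted p = 0.00113). Tyk2 changed by 0.10 ± 0.07 at 10 µM, which did not pass (limma adjusted p = 0.304). Of the 11 receptor and JAK-STAT genes tested here, 1 rose and 4 fell at 10 µM, against 28.5% and 22.0% of all genes tested.

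**Figure D5:**
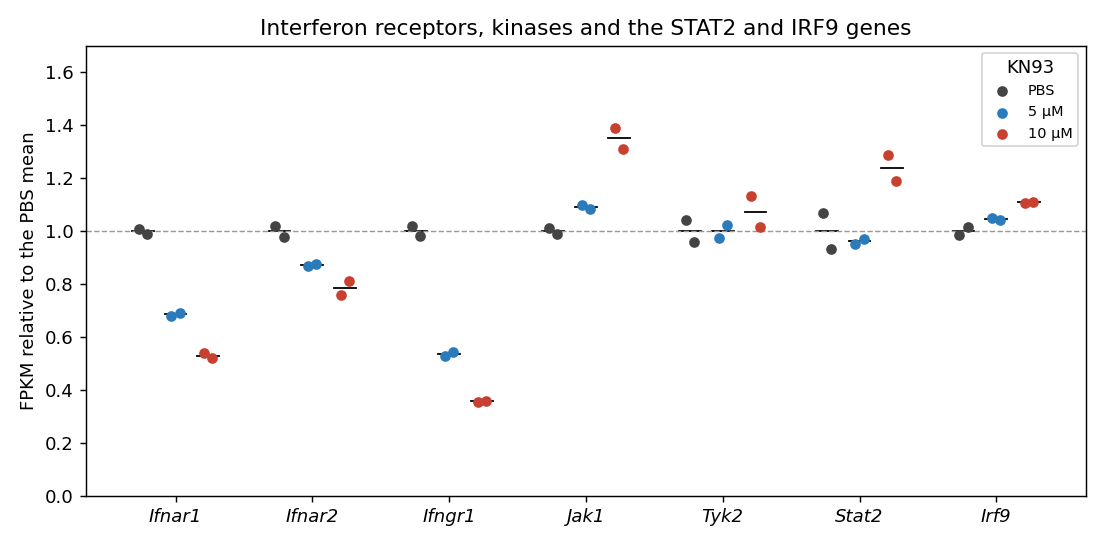
FPKM of receptor, kinase and transcription factor genes in each sample, divided by the mean of the PBS samples of that gene (points; bars are means of 2; the dashed line is 1). Ifnar1, Ifnar2 and Ifngr1 lie below 1 at both doses, and Jak1 and Stat2 lie above 1 at 10 µM.

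Of 18 negative regulators tested, 5 rose and 4 fell at 10 µM, shares close to the 28.5% and 22.0% of all genes tested. Socs3, which encodes an inhibitor of cytokine receptor signalling, had 8.9 and 7.04 FPKM with PBS, 3.78 and 3.56 at 5 µM, then 2.3 and 2.04 at 10 µM and a log2 change of -1.49 ± 0.11 (limma adjusted p = 0.000244). Adar, which encodes an RNA-editing enzyme and is itself interferon-induced, had 32.2 and 30.8 FPKM with PBS, 33.5 and 34.4 at 5 µM, then 44.1 and 39.9 at 10 µM and rose at 10 µM by 0.40 ± 0.06 (limma adjusted p = 0.00325). Tollip and Nlrc3, both inhibitors of innate signalling, rose at 10 µM by 0.59 and 0.67.

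A second list held 97 interferon-stimulated genes outside the 40. Of 91 tested, 55 rose and 14 fell at 10 µM (28.5% and 22.0% of all genes tested), with a median log2 change of 0.36. At 5 µM 18 rose and 16 fell, near the 15.1% and 15.4% of all genes tested, with a median of 0.01. Cd274, which encodes the checkpoint ligand PD-L1, had 48.4 and 48.5 FPKM with PBS, 91.1 and 101 at 5 µM, then 196 and 171 at 10 µM, and Tmem140 13.4 and 14.3 FPKM with PBS, 24.1 and 25.7 at 5 µM, then 39.5 and 42.2 at 10 µM. Both rose at both doses without overlap between groups, at 10 µM by 1.89 ± 0.08 and 1.49 ± 0.06 (limma adjusted p = 5.24e-05 and 4.56e-05). Ly6c2, a surface marker of inflammatory monocytes, fell, with 23.6 and 21.8 FPKM with PBS, 5.33 and 5.62 at 5 µM, then 1.63 and 1.22 at 10 µM (limma adjusted p = 1.81e-05 at 10 µM). Ifitm2 had 109 and 94.1 FPKM with PBS, 45.4 and 46.1 at 5 µM, then 35.1 and 34.5 at 10 µM and fell at 10 µM by 1.51 on the log2 scale (limma adjusted p = 7.04e-05). Of 9 genes tested that interferon gamma is best known for, 7 rose and 0 fell at 10 µM (28.5% and 22.0% of all genes tested). At 5 µM 5 rose and 1, Serping1, fell (15.1% and 15.4%). The antigen-presentation gene H2-Aa had 22.7 and 22.4 FPKM with PBS, 70.6 and 74.6 at 5 µM, then 83.4 and 89.7 at 10 µM, and rose by 1.64 ± 0.06 at 5 µM and 1.89 ± 0.06 at 10 µM (limma adjusted p = 0.000148 and 1.99e-05). H2-Ab1, its partner chain, had 43.3 and 42 FPKM with PBS, 115 and 125 at 5 µM, then 121 and 132 at 10 µM, and the 5 and 10 µM samples overlapped.

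Promoter windows were searched for the members of the set that had one in the RefSeq table, 31 of 40, in 300 bases from 250 before to 50 after the start. The ISRE-type pattern above, read on both strands, was found in 15 of the 31 genes (48.4%), against 3.99% of the 27025 genes in the table. The pattern of the gamma-activated site, TTC, any 3 bases and GAA, which reads the same on both strands, was found in 7 of 31 (22.6%), against 9.55% of all genes. Matches of the patterns can overlap. Side by side and with no test, the median log2 change at 10 µM was 0.37 over the 15 genes with an ISRE-type match. It was 0.56 over the 16 without. In the same order, 12 and 15 genes rose (28.5% of all genes tested). Isg15 held 3 overlapping matches, beginning 78, 72 and 66 bases before its start, at chr4:156200875-156200896 on the minus strand. The middle one is shown for its 2 neighbours, which can be read in the flanks.
Isg15, 72 bases before: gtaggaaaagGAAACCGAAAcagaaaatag
Eif2ak2, the gene that fell at 5 µM, held 1 match, 19 bases after its start. A match is a description of the letters and not of binding.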

How the data were processed

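RNA was taken with TRIzol for Illumina sequencing, per the labels' protocols, and reads were aligned with HISAT2 to GRCm38, per the submitters' processing notes. What counting tool, annotation, strand setting and filters the authors used is not given in the sources used here. The authors deposited FPKM, with 1 column per sample, and the DXM in column names is unexplained. Gene IDs were matched to GENCODE M21 (99.93%), whose exon lengths gave fragments (98.8% to 99% of values up to 20 were whole within 0.1). Genes with at least 1 FPKM in 2 samples were fitted as log2(FPKM + 1) by limma 3.58.1 in R 4.3.3, with all 6 samples in 1 fit, group as factor, an intensity trend and 3 residual degrees of freedom. The variance of each gene was moderated towards that trend (2.718 prior degrees of freedom). The log2(FPKM + 1) scale understates changes of low genes. Tests are two-sided, and the Benjamini-Hochberg method was applied over 12722 genes. The code of the fit was run on simulated data with independent noise and few changed genes. These data differ in both, so that run does not measure error rates here. The 13 alternatives took another pseudocount (0.1), no filter or 5 FPKM, median-of-ratios scaling, a replicate block, only the 4 samples compared, voom on fragments, or each sample away in turn. The 40 genes and all lists were chosen with earlier results of these data known. By rule, all 40 genes were named, with up to 4 of each other list by smallest p at 10 µM, fixed pathway genes (Ifnb1, Ifna4, Ifnar1, Ifnar2, Jak1, Tyk2, Irf3) and the promoters of the largest changes. Csf1r, Cd68, Serping1, markers under 0.2 FPKM and the other promoter sites were chosen after their values were seen. Replicates are numbered by accession. An item of the pathway lists is not reported here.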

Additional observations from a re-analysis of the deposited data

How the results depend on the processing

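The 34 rises at 10 µM against PBS were between 26 and 34 under the 13 alternatives, and 25 of the genes were called in all of them. The count of rises at 5 µM was 5 with no filter on low values and 5 to 10 with 1 sample left out, and that of falls was 2 with a filter of 5 FPKM, 2 with median-of-ratios scaling and 4 with voom on recovered fragments. From 5 to 10 µM, leaving out 1 sample gave 19 to 32 rises. Genes whose dose steps differed numbered 0 with no filter, 15 with a filter of 5 FPKM, 5 with the replicate block, 21 with voom and 0 to 5 with 1 sample left out. In each comparison, rises over all genes tested were also fewer with 1 sample left out. The cause of these differences was not tested. Replicate numbers follow accession order and samples of the same number did not deviate together (correlations of -0.055, 0.0144 and 0.0373), so the block rests on a number only. With it, 32 genes rose at 10 µM against PBS, 10 at 5 µM and 30 from 5 to 10 µM. No result that changed direction had been called. The log2 changes at 5 µM that changed sign were Mx1 -0.0076, Isg15 -0.0064 and Irf8 -0.017 with median-of-ratios scaling, and Oas1a -0.0059, Oasl2 -0.0094, Mx1 -0.0201, Isg15 -0.0192, Irf8 -0.0303 and Irf3 -0.0124 with voom. With 1 sample left out, the log2 changes at 5 µM that changed sign ranged as Irf7 -0.0578 to 0.0049, Stat2 -0.1474 to 0.0438, Zbp1 -0.0081 to 0.276, Oas1a -0.0197 to 0.0744, Oasl2 -0.0042 to 0.0518, Mx1 -0.1326 to 0.1577, Rtp4 -0.0462 to 0.0196, Isg15 -0.1449 to 0.1731, Herc6 -0.1628 to 0.1206, Dtx3l -0.1313 to 0.0122, Irf8 -0.0415 to 0.0475, Tyk2 -0.0578 to 0.0559 and Irf3 -0.0176 to 0.0574. At 10 µM they were Trim30a -0.012 to 0.1549 and Irf3 -0.1159 to 0.1063, and from 5 to 10 µM Irf3 -0.1358 to 0.0864. Depth limited Ifnb1 alone among the named pathway genes with a value above 0, at 1 to 11 fragments. With 1 sample of a group left out, the lone sample is assumed to vary like the other groups.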
